A study of Rattus norvegicus with 6 samples.

Results

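The Hox genes of the 4 clusters were examined in cultured newborn rat ovaries treated with connective tissue growth factor (CTGF). Members were all probe sets with 1 symbol in the platform annotation, that symbol being Hoxa, Hoxb, Hoxc or Hoxd followed by a number. This gave 21 genes with 1 probe set each, of 27342 probe sets in all, and the other 18 of the 39 Hox genes that RefSeq lists for these clusters in the rat assembly GRCr8 had no named probe set. Transcripts were measured in 6 samples. The 3 treated samples were ovaries cultured for 24 h with human CTGF at 500 ng/ml, and the 3 control samples were cultured for the same time with no treatment. All were from 0-day-old female Sprague-Dawley rats, each sample being a pool of 2 to 3 whole ovaries from pups of 1 litter, and each of the 3 culture date batches held 1 CTGF and 1 control sample. CTGF is a secreted protein of the extracellular matrix, and the ovaries at this age are at the stage when nests of oocytes break down and primordial follicles assemble, and the comparison asked which transcripts differed after 24 h with CTGF.

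Hox genes encode transcription factors that bind DNA through a homeodomain and give cells along the head-to-tail axis of the embryo their regional identity. They lie in 4 clusters, Hoxa to Hoxd, in which genes of the same number (paralogs) descend from 1 ancestral gene. In the rat, clusters A, B, C and D lie on chromosomes 4, 10, 7 and 3. Low numbers are used toward the head and high numbers, from 9 on, toward the tail. In the mouse the high-numbered genes also divide the female reproductive tract, with Hoxa9 in the oviduct, Hoxa10 and Hoxa11 in the uterus and Hoxa13 in the upper vagina. Many Hox proteins bind DNA together with the cofactors Pbx and Meis. Of the tract genes named here, Hoxa11 was the 1 with a named probe set.

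For each probe set the deposited value is a log2 signal. The signal of a probe set depends on its probes as well as on the transcript, so each was set against a background limit. The order of signals within a cluster served only to choose genes whose array values are given and says nothing of the order of transcript levels. The limit was the 95th percentile of 41 silent tissue genes, which are genes that the lung, gut, kidney, pituitary, pancreas, lens or retina use. It lay at a log2 signal of 5.26. The median of the silent tissue genes was 4.39. Of the probe sets as a whole, 58.1% exceeded the limit.

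In these ovaries 9 of the 21 Hox genes (42.9%) lay above the limit. Cluster C had 3 of its 4 measured genes above it, Hoxc4 at a mean log2 signal of 7.44, Hoxc5 at 7.31 and Hoxc9 at 5.93. Cluster D had 3 of 6, Hoxd4 at 6.67, Hoxd9 at 6.55 and Hoxd10 at 6.60. Cluster A had 2 of 5, Hoxa5 at 6.42 and Hoxa7 at 5.51, and cluster B had 1 of 6, Hoxb3 at 5.58. By paralog number, 3 of the 8 genes of paralogs 1 to 4, 3 of the 5 of paralogs 5 to 8 and 3 of the 4 of paralogs 9 and 10 were above it. None of the 4 measured genes of paralogs 11 to 13 was, with Hoxa11 at 4.10, Hoxc12 at 3.93, Hoxb13 at 4.15 and Hoxd13 at 4.35. These 4 signals were under the silent tissue median, as were those of Hoxa4, Hoxb8 and Hoxb9. Hoxa11 acts in the uterus and in the long bones of the limb, Hoxb13 in the tail and the prostate, and Hoxd13 in the digits, all known from the mouse.

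**Figure D1:**
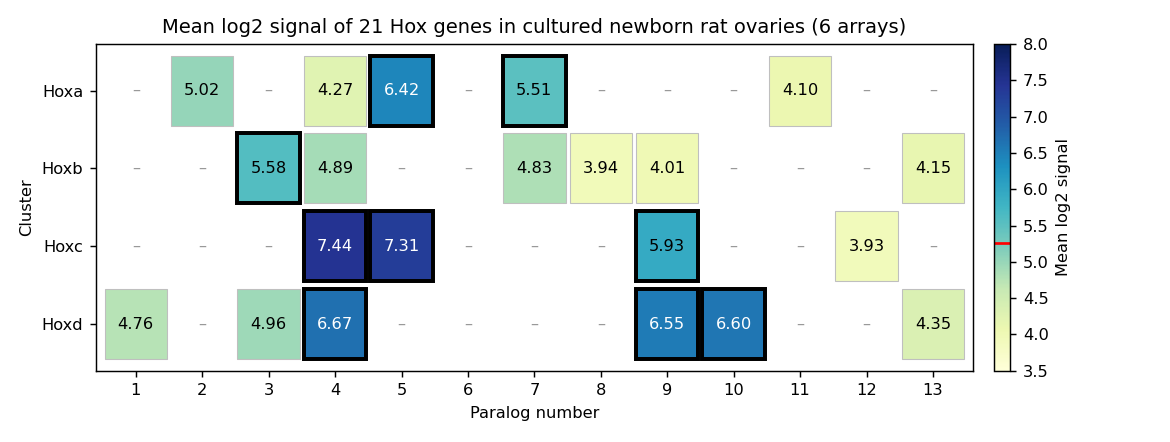
Mean log2 signal over the 6 arrays (number and colour) for each measured Hox gene, by cluster (rows) and paralog number (columns); a thick outline marks a signal above the background limit of 5.26 (red line on the colour scale) and a dash marks a gene with no named probe set. The 9 outlined genes lie at paralogs 3 to 10, and the 4 genes at paralogs 11 to 13 lie between 3.93 and 4.35.

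Among the rest at or below the limit were the head-side genes Hoxd1 at 4.76, Hoxa2 at 5.02, which specifies the second branchial arch, and Hoxd3 at 4.96, and the paralogs Hoxa4 at 4.27 and Hoxb4 at 4.89. Hoxb4 is known for its role in blood stem cells. Hoxb7 lay at 4.83, Hoxb8 at 3.94 and Hoxb9 at 4.01. A signal under the limit was not detectable above background and does not show that the transcript was absent. Just above the limit were Hoxa7 and Hoxb3, and neither exceeded the 95th percentile of 1127 olfactory receptor probe sets (5.58), another background, which left 7 genes above. With the highest silent tissue gene as the limit (6.21) 6 genes were left, Hoxa5, Hoxc4, Hoxc5, Hoxd4, Hoxd9 and Hoxd10. In the RefSeq annotation the gene of Hoxc6 overlaps those of Hoxc4 and Hoxc5, and the gene of Hoxa3 overlaps those of Hoxa4 and Hoxa5, so a signal here cannot be told apart from that of an overlapping transcript. The gene of the microRNA Mir10b lies within that of Hoxd4.

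The promoter sequences of 11 of the 21 genes were in the RefSeq table, each read here as the 250 bases before the annotated start. Searched for were CG pairs, which are dense in the promoters of developmental genes, the letters CCAAT, bound by the factor NF-Y, and the letters TGATNNAT of a joint Hox and Pbx site. Both strands were searched, and no match of one overlapped a match of the other in these 11. The Hox promoters held 3 to 32 CG pairs with a median of 20, against a median of 5 over all 33469 promoters of the table, and their median content of G and C was 60% against 51.2%. CCAAT was found in 6 of the 11 promoters, 4 of the 5 of genes above the limit and 2 of the 6 of genes below it, and in 34.0% of all promoters. TGATNNAT was found in 1, that of Hoxa2, and in 7.96% of all promoters. The promoters of Hoxd4, Hoxd9 and Hoxd10 are shown because these genes of cluster D lay above the limit, and that of Hoxa2 for its match to the Hox and Pbx letters. Capitals mark CCAAT or its complement ATTGG, and in Hoxa2 also the match ATCAATCA. A match is a run of letters, not a shown site.
Hoxd4, GRCr8 chr3:80021636-80021885, plus strand: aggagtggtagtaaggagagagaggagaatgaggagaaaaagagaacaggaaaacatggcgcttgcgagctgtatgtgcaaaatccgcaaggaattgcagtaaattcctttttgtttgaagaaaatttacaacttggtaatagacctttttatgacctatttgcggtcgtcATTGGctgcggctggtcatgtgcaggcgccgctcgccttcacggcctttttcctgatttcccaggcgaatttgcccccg
Hoxd9, GRCr8 chr3:80007756-80008005, plus strand: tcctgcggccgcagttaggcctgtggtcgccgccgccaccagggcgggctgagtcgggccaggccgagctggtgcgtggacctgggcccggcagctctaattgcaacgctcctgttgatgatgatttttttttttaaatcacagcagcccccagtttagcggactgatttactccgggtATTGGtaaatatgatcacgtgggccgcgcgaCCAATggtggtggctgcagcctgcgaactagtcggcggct
Hoxd10, GRCr8 chr3:80001697-80001946, plus strand: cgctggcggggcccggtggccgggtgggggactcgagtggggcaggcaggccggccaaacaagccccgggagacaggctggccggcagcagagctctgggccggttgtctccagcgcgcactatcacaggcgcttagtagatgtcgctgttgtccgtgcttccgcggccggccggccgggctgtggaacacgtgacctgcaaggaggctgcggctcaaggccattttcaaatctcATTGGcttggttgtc
Hoxa2, GRCr8 chr4:82595693-82595942, minus strand: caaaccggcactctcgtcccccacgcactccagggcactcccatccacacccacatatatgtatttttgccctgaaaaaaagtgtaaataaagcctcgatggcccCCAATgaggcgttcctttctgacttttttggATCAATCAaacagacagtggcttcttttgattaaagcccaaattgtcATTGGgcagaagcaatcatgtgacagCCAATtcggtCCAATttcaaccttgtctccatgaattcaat

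CTGF and control ovaries were compared with limma, a linear model across all probe sets, with the culture batch as a block as in the study's methods. Of the 21 Hox genes, 0 passed an adjusted p of 0.05 (Benjamini-Hochberg over all probe sets, background 0%), and 0 had an unadjusted p under 0.05, where 1.45% of all probe sets were called higher and 1.89% lower. Under the methods' 2-way test, where each gene has its own spread, 1 Hox gene had an unadjusted p under 0.05, Hoxd4 (4.76% of the 21 genes), where 4.2% of all probe sets did. The study's criteria were a ratio of un-logged signals over 1.2 or under 0.83, a difference over 10 and an unadjusted p under 0.05. Here that p was the limma one, where the study took it from its 2-way test. At these criteria 0 Hox genes were called, where 0.19% of all probe sets were called higher and 0.245% lower. Mean differences of CTGF minus control lay between -0.19 and 0.13 on the log2 scale, with a median of -0.01 against 0.00 over all probe sets. Of the 21 genes, 7 were above control, 13 below and Hoxc12 equal to it. Over all 27342 probe sets, 12905 were above control and 13963 below. By cluster the numbers above and below were 0 and 5 in cluster A, 3 and 3 in cluster B, 1 and 2 in cluster C and 3 and 3 in cluster D. The 95% interval of the difference lay within 1.2-fold on both sides for 15 genes. Above the background limit these were Hoxa7, Hoxb3, Hoxc4, Hoxc5, Hoxc9, Hoxd4 and Hoxd9. The rest were Hoxa2, Hoxa4, Hoxa11, Hoxb4, Hoxb8, Hoxb9, Hoxc12 and Hoxd1. Their signals were not detectable above background, so their intervals do not bound a change of the transcript. The interval reached further for Hoxa5, Hoxb7, Hoxb13, Hoxd3, Hoxd10 and Hoxd13.

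For every probe set, the deposited CTGF and control arrays of a batch had a mean that differed by at most 0.005 from that of the other batches. The groups of a gene therefore did not overlap exactly where its 3 paired differences had one sign, and the SD within a group leaves out the spread between culture dates. Of the Hox genes, 3 were higher in all 3 batches, Hoxb4, Hoxd4 and Hoxd13, where 9.41% of all probe sets were (14.3% of the 21 genes), and 4 were lower in all 3, Hoxa2, Hoxa11, Hoxb3 and Hoxd10, where 10.9% were (19% of the 21 genes). Under quantile normalization 2 genes were lower in all 3 batches, where 10.8% of all probe sets were, and 2 were higher, where 11.1% were. With each array centred on its median 2 were lower, where 8.33% were, and 3 were higher, where 12.1% were. In a whole ovary, fewer cells of a type and less RNA per cell cannot be told apart.

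**Figure D2:**
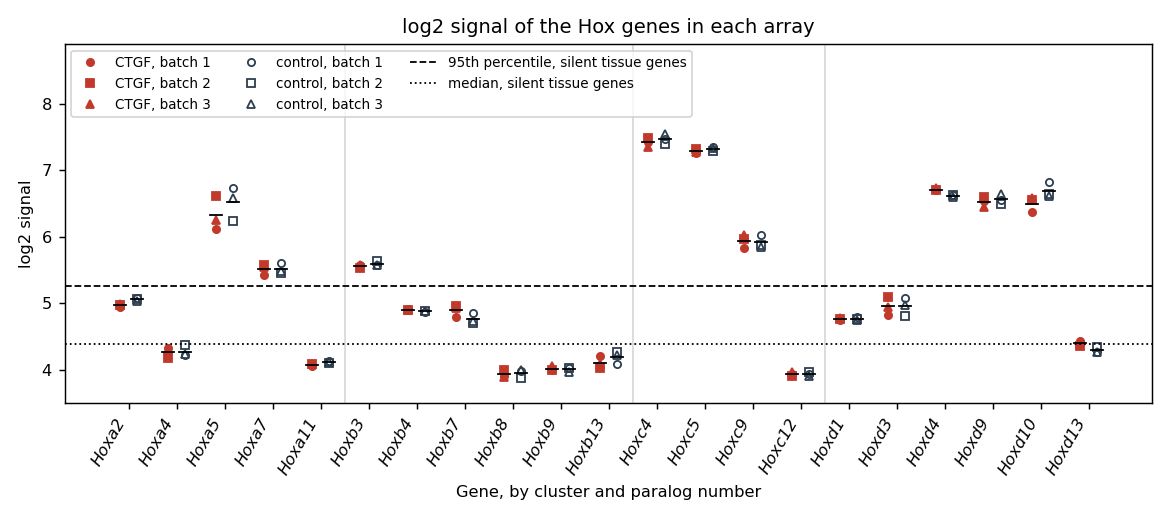
log2 signal (vertical axis) of each Hox gene (horizontal axis) in the 3 CTGF (red) and 3 control (open) arrays, with the symbol giving the culture batch, the short lines the group means, the dashed line the background limit and the dotted line the median of the silent tissue genes. The CTGF and control points overlap in 14 genes, and those of Hoxa5 spread the widest, from 6.11 to 6.73.

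Hoxd4 specifies the upper neck vertebrae in the mouse. Its log2 signal was 6.70, 6.70 and 6.73 in CTGF ovaries of batches 1, 2 and 3, against 6.63, 6.63 and 6.60 in control ovaries. The CTGF values were all above the control values, by 0.07, 0.07 and 0.13. The mean difference was 0.09 (standard error 0.06, 95% interval -0.06 to 0.24, adjusted p = 0.994, limma). Of the other paralogs of this number, Hoxc4 had 7.42, 7.49 and 7.35 in CTGF ovaries, against 7.47, 7.39 and 7.54 in control ovaries. These overlapped, and the paired differences of -0.05, 0.10 and -0.19 had both signs. Hoxb4, at signals below the limit, had 4.91, 4.90 and 4.90 in CTGF ovaries, against 4.87, 4.88 and 4.88 in control ovaries. Its differences of 0.04, 0.02 and 0.02 were all positive and close to the rounding of the deposited values to 2 decimals. Hoxa4 had 4.32, 4.17 and 4.30 in CTGF ovaries, against 4.22, 4.37 and 4.23 in control ovaries, with overlap. Paralog number 4 was singled out as the number with the most measured genes among those with 2 above the limit.

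Hoxd10 acts in the hindlimb and in lumbar motor neurons in the mouse. Its log2 signal was 6.37, 6.55 and 6.58 in CTGF ovaries, against 6.82, 6.64 and 6.61 in control ovaries. The CTGF values were all below the control values, but batch 1 gave most of the difference, with -0.45 against -0.09 and -0.03 in batches 2 and 3. The mean difference was -0.19 (standard error 0.10, 95% interval -0.43 to 0.05, adjusted p = 0.994, limma), and without replicate 1 it was -0.06. Its neighbour Hoxd9 had 6.54, 6.60 and 6.44 in CTGF ovaries, against 6.55, 6.49 and 6.65 in control ovaries. Those groups overlapped, with a mean difference of -0.04 (standard error 0.08). Hoxd13, at the tail end of the same cluster and below the limit, had 4.43, 4.35 and 4.42 in CTGF ovaries, against 4.26, 4.34 and 4.27 in control ovaries, a mean difference of 0.11 (standard error 0.07, adjusted p = 0.994, limma). At the head end, Hoxd3 had 4.83, 5.10 and 4.94 in CTGF ovaries, against 5.08, 4.81 and 4.97 in control ovaries, and Hoxd1 stayed between 4.74 and 4.79 in all 6.

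Hoxa5, which is needed for the lung and the lower neck in the mouse, was the Hox gene that differed most between batches. Its log2 signal was 6.11, 6.61 and 6.25 in CTGF ovaries, against 6.73, 6.23 and 6.59 in control ovaries. CTGF ovaries were the lower ones in batches 1 and 3 and the higher ones in batch 2, with differences of -0.62, 0.38 and -0.34. The SD of these differences was 0.516, and 0.764% of all probe sets (209) had one as large. The mean difference was -0.19 (standard error 0.18, 95% interval -0.63 to 0.24, adjusted p = 0.994, limma). Without replicate 1 it was 0.02, and without replicate 2 it was -0.48 (adjusted p = 0.988, limma). Hoxa7, an axial patterning gene, had 5.42, 5.57 and 5.54 in CTGF ovaries, against 5.6, 5.46 and 5.48 in control ovaries, with overlap. Hoxa2, below the limit, had 4.95, 4.98 and 4.99 in CTGF ovaries, against 5.08, 5.06 and 5.04 in control ovaries. All its CTGF values lay below the control values, with a mean difference of -0.09 (standard error 0.06, adjusted p = 0.994, limma). The values of Hoxa11 were also lower in all 3 batches, with differences of -0.07, -0.01 and -0.03, at signals under the silent tissue median.

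**Figure D3:**
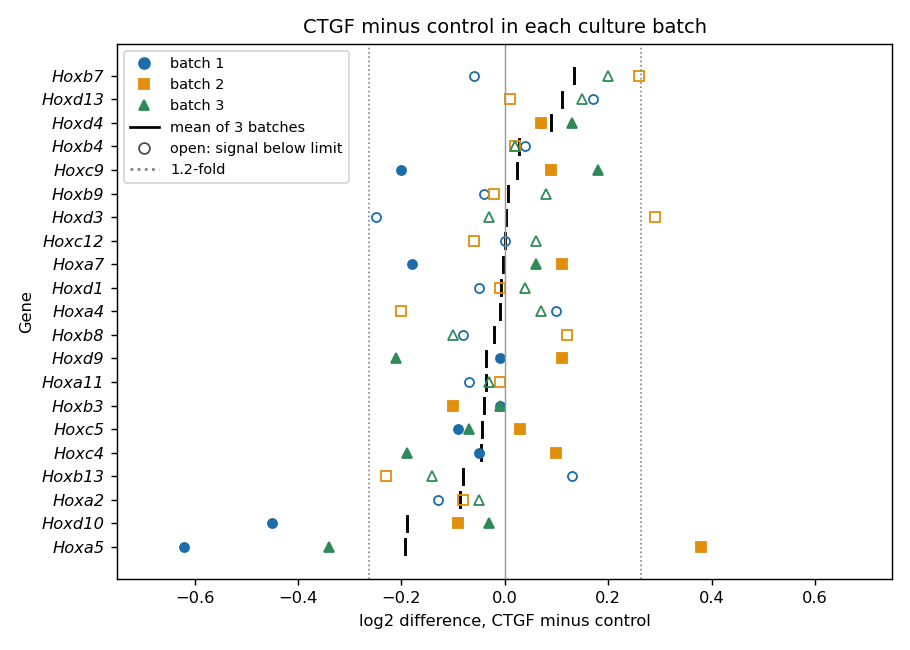
log2 difference of CTGF minus control (horizontal axis) for each Hox gene (vertical axis), with circles for culture batch 1, squares for 2, triangles for 3, a black line for the mean, open symbols for genes below the background limit and dotted lines at 1.2-fold. The means lie between -0.19 and 0.13, and Hoxa5 has points at -0.62, 0.38 and -0.34.

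In clusters B and C no mean difference was larger than 0.13. Hoxc5 had 7.26, 7.32 and 7.27 in CTGF ovaries, against 7.35, 7.29 and 7.34 in control ovaries, with overlap and a mean difference of -0.04 (standard error 0.07). Hoxc9, which sets the identity of thoracic motor neurons in the mouse, had 5.83, 5.97 and 6.02 in CTGF ovaries, against 6.03, 5.88 and 5.84 in control ovaries, also with overlap. Hoxb3 acts in the hindbrain. It had 5.57, 5.53 and 5.57 in CTGF ovaries, against 5.58, 5.63 and 5.58 in control ovaries. These did not overlap, but in batches 1 and 3 the difference was -0.01. Hoxb7, below the limit, had the highest mean difference of the 21 genes. Its values were 4.80, 4.96 and 4.93 in CTGF ovaries, against 4.86, 4.70 and 4.73 in control ovaries, a mean difference of 0.13 (standard error 0.08, adjusted p = 0.994, limma). It was lower in batch 1 and higher in batches 2 and 3, with differences of -0.06, 0.26 and 0.20. For Hoxb8, Hoxb9, Hoxb13 and Hoxc12, all under the limit, the mean differences were -0.02, 0.01, -0.08 and 0.00, each with both signs among its batches.

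The paired differences were also counted by batch, after the values were seen and with no test. In batch 1, 15 of the 21 genes were lower in CTGF than in control ovaries (71.4%), where 49% of all probe sets were. In batch 2 there were 9 lower and 12 higher, where 51.2% of all probe sets were lower, and in batch 3 there were 11 lower and 10 higher, where 47.4% were lower. Over all 21 genes the median difference was -0.05, 0.02 and -0.01 in batches 1, 2 and 3, while over all probe sets it was 0.00, -0.01 and 0.00. For the 9 genes above the limit it was -0.09, 0.09 and -0.03, and for the other 12 genes it was -0.045, -0.01 and 0.03. Hoxa5, Hoxb8, Hoxc4, Hoxc5, Hoxd3 and Hoxd9 were lower, higher and lower in batches 1, 2 and 3 (28.6% of the 21 genes, against 9.69% of all probe sets). Hoxb8 and Hoxd3 among them lay below the limit. Some of the signs rest on small differences, with -0.01 for Hoxd9 in batch 1 and -0.03 for Hoxd3 in batch 3.

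The cell types of the samples were checked by their markers. All 8 named germ cell markers, Kit, Lhx8, Tdrd1, Mael, Sycp3, Sycp1, Dazl and Ddx4, were above the limit, as were all 10 named ovarian somatic markers, Wt1, Gata4, Lhx9 and Amhr2 among them. All 8 germ cell markers had a mean above control, with a median difference of 0.12, where 12905 of 27342 probe sets were above control. The germ cell list also differed by batch, with median differences of 0.14, -0.21 and 0.33 in batches 1, 2 and 3. Of its 8 genes, 6 were higher, lower and higher there, where 12% of all probe sets were. Its summed un-logged signal ranged over 6674 to 7806 in CTGF ovaries and 6329 to 7422 in control ovaries. Kit was the 1 germ cell marker with an unadjusted p under 0.05 (limma), where 1.45% of all probe sets were higher. Batches 1, 2 and 3 gave it differences of 0.12, 0.15 and 0.31, a mean of 0.19 (standard error 0.07, adjusted p = 0.994, limma). The part of the germ cell share in the differences of the Hox genes between batches was not tested. Of 10 named markers of the mesonephros and the Müllerian duct, tissues beside the ovary that use high-numbered Hox genes, 5 were above the limit, Krt19, Gata3, Tfcp2l1, Wnt9b and Pax8, and Pax2, Lhx1, Ret, Cdh16 and Sim1 were not. That list had median differences of -0.02, 0.06 and 0.14, and its summed signal was 3065 to 3323 in CTGF ovaries and 3143 to 3403 in control ovaries. Krt19 made up most of that sum, at a mean log2 signal of 11.445 against 7.60 for Gata3, the next. Above the limit were also 9 of 12 leukocyte, 2 of 6 red cell, 3 of 5 endothelial, 3 of 6 smooth muscle, 2 of 7 skeletal muscle and 1 of 5 neural and glial markers. The mast cell protease Cpa3 had the smallest unadjusted p among the leukocyte markers, with a difference of -0.82 (standard error 0.23, adjusted p = 0.994, limma). Batches 1, 2 and 3 gave -0.14, -0.80 and -1.52, and without replicate 3 the mean was -0.47. Tyrobp and Cd3e, the second below the limit, were also lower at an unadjusted p under 0.05, with differences of -0.21 and -0.16. At that p, 1.89% of all probe sets were lower. The unadjusted p of Tyrobp and Cd3e was over 0.05 without replicate 1 or 2, and under it without replicate 3 (limma). Of the 12 leukocyte markers 9 were below control and 3 above it, Csf1r at 0.07, Lyz2 at 0.09 and Cd68 at 0.0033. Over all 27342 probe sets, 13963 were below control.

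Of the cofactors of Hox proteins, 6 of 8 named genes were above the limit, Pbx2, Pbx3, Meis1, Meis2, Pknox1 and Pbxip1, and Pbx4 and Meis3 were not. Pbx and Meis proteins are homeodomain proteins that raise the DNA selectivity of Hox proteins. Meis2 had the largest mean difference of them, with log2 signals of 6.18, 6.27 and 6.0 in CTGF ovaries, against 6.30, 6.21 and 6.48 in control ovaries (-0.18, standard error 0.11, adjusted p = 0.994, limma). Its groups overlapped, and batch 3 gave -0.48. Meis1 likewise had -0.42 in batch 3, with 0.02 and 0.17 in batches 1 and 2. Pbx2 had differences of -0.02, -0.06 and -0.20, and Pbx3 had 0.06, -0.24 and -0.10. Of these 8 genes 3 were above and 5 below control, with a median difference of -0.08, and 0 passed at an adjusted or unadjusted p of 0.05 (limma).

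**Figure D4:**
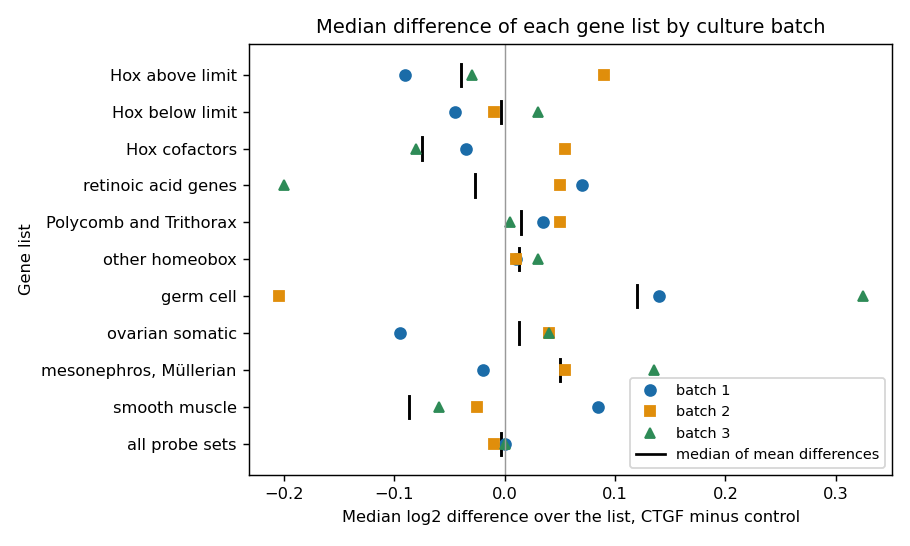
Median log2 difference of CTGF minus control over each gene list (vertical axis), with circles for culture batch 1, squares for 2, triangles for 3 and a black line for the median of the mean differences. The Hox genes above the limit have -0.09, 0.09 and -0.03, and the germ cell markers 0.14, -0.21 and 0.33.

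Retinoic acid turns on Hox genes in the embryo, the head-side ones first. Of 15 named genes of its synthesis, breakdown and receptors, 11 were above the limit. Crabp1, which binds retinoic acid in the cytoplasm, was the 1 with an unadjusted p under 0.05. It had 6.04, 6.09 and 5.91 in CTGF ovaries, against 5.74, 5.68 and 5.87 in control ovaries. Its CTGF values were all higher, by 0.30, 0.41 and 0.04, a mean of 0.25 (standard error 0.09, adjusted p = 0.994, limma). The synthetic enzyme Aldh1a2 had a difference of -0.15 (standard error 0.08), and Cyp26b1, which breaks retinoic acid down and was below the limit, one of 0.11 (standard error 0.07). Polycomb proteins keep Hox genes silent and Trithorax proteins keep them active, and 28 of 30 named genes of these groups were above the limit, 16 above control and 13 below. Rybp, of Polycomb complexes, had a difference of 0.29 (standard error 0.07) and Phf19, below the limit, one of -0.19 (standard error 0.07), both with an adjusted p of 0.994 in limma. The next gene by p was Cbx8 at -0.20, a Polycomb protein. Evx1 and Evx2, at the tail ends of clusters A and D, and Cdx2, Cdx4 and Gsx2, relatives of the Hox genes, were all below the limit. Of 6 patterning signals and regulators 3 were above it, and Wnt3a, below it, had the smallest p with a difference of 0.13. Of 143 genes over these lists and other homeobox genes, 0 passed an adjusted p of 0.05 and 5 had an unadjusted p under 0.05 (limma). At that unadjusted p, 1.45% of all probe sets were higher and 1.89% lower.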

How the data were processed

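Transcripts were measured on Rat Gene 1.0 ST arrays in 3 CTGF and 3 control pools, grouped by their labels, which also give the culture date batch of each. The authors summarized probes to a log2 signal with RMA in Partek, with a GC-content adjustment per the methods; the deposited log2 values have 2 decimals. The mean of the paired arrays is equal over the 3 batches, so batch differences were taken out before deposit, and the pairing by number rests on the batch labels. This leaves 2 residual degrees of freedom, to which limma adds 4.22 prior ones. Array medians lay between 5.82 and 5.84, and the number of arrays limits the precision.

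Differences were tested in R 4.3.3 by limma 3.58.1 (moderated linear model, batch as a block, no filter), with Benjamini-Hochberg adjustment over 27342 probe sets and 95% intervals from its moderated standard errors. The procedure was tested on simulated data. Their noise was independent between arrays, without the equal batch means of the deposited values, so that test does not bear on the Hox results. Names came from the platform annotation, where 15097 probe sets have 1 symbol, 323 several and 11922 none, with 15067 matched to RefSeq GRCr8 by Entrez number. The array annotation uses another assembly, so only the promoters carry coordinates. For other lists the probe set with the highest mean represented a gene. Members and lists were chosen with earlier results of these data known. By rule, array values are given for the Hox genes with the 3 highest and 3 lowest differences, the 2 brightest of each cluster, 1 paralog number and any with an unadjusted p under 0.05; other lists give up to 3 genes by p and any under 0.05. Further genes were named after their values were seen. A list of 6 Y-linked genes had no named probe set, and a planned comparison of homeodomain sequences was not run. The alternatives tried were no batch block, 2 array scalings, the methods' 2-way test, eBayes with a trend and robust moderation, a signal filter, each pair left out and other background limits.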

Additional observations from a re-analysis of the deposited data

How the results depend on the processing

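The culture batch pairs the samples by their labels. With no replicate block, 3 Hox genes had an unadjusted p under 0.05, Hoxa2, Hoxd4 and Hoxd13 (14.3%), where 16.1% of all probe sets did, and the smallest adjusted p of any Hox gene under any alternative was 0.179 (limma); that fit counts more residual degrees of freedom although the batch means were already equal. The methods' 2-way test gave 1, and leaving out each pair gave 0 to 1, Hoxb7 without replicate 1 (2.36% of all probe sets) and Hoxa5 without replicate 2 (2.53%). At the study's criteria with the limma p, the Hox count was 0 to 1 with each pair left out, Hoxa5 without replicate 2 (0.819% of all probe sets). In the full data 119 of all probe sets were called at these criteria with the limma p, against 0 at an adjusted p of 0.05. Among the Hox genes above the limit 1 was higher in all 3 batches, where 9.31% of probe sets above it were, and 2 were lower (9.94%). Of all 21 genes, 2 were higher and 2 lower after quantile normalization. With arrays centred on their medians 3 were higher and 2 lower. Under quantile normalization the mean difference changed sign for Hoxa7 (0.0025) and Hoxd1 (0.0033), and with median centring for Hoxa4 (0.0033), Hoxa7 (0.01) and Hoxd1 (0.0067). With each pair left out 10 genes changed sign: Hoxa4 lay between -0.065 and 0.085, Hoxa5 between -0.48 and 0.02, Hoxa7 between -0.06 and 0.085, Hoxb8 between -0.09 and 0.02, Hoxb9 between -0.03 and 0.03, Hoxc4 between -0.12 and 0.025, Hoxc9 between -0.055 and 0.135, Hoxd1 between -0.03 and 0.015, Hoxd3 between -0.14 and 0.13 and Hoxd9 between -0.11 and 0.05. The cause was not tested. Of the other 11, 10 genes kept their sign there, and Hoxc12, at 0 in the full data, had 0, 0.03 and -0.03 without replicates 1, 2 and 3. Averaging the probe sets of a gene changed nothing because each Hox gene had 1. Signals under the background limit bound what could be detected for 12 of the 21 genes.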

Other observations

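Homeobox genes outside the 4 clusters were also read from the arrays. Of 79 named ones 21 were above the background limit (26.6%, against 42.9% of the Hox genes and 58.1% of all probe sets, a difference that was not tested). Among them were Lhx9 and Emx2, which the early gonad needs, at mean log2 signals of 9.26 and 7.88, and Lhx8, an oocyte gene, at 8.48. Of the 79, 44 were above and 33 below control, with a median difference of 0.01, and 0 passed an adjusted p of 0.05 in limma. At an unadjusted p under 0.05 there were 2, both higher, where 1.45% of all probe sets were higher. Irx2 had log2 signals of 5.66, 5.71 and 5.77 in CTGF ovaries, against 5.56, 5.50 and 5.45 in control ovaries, a difference of 0.21 (standard error 0.07, adjusted p = 0.994, limma) with no overlap. Meox1, below the limit, had 4.41, 4.50 and 4.34 in CTGF ovaries, against 4.21, 4.13 and 4.28 in control ovaries, a difference of 0.21 (standard error 0.08). Hmx2 had a difference of -0.14 (standard error 0.07). Of the 41 silent tissue genes, 1 had an unadjusted p under 0.05, Scgb1a1 at -0.24, where 1.89% of all probe sets were lower.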
